A study of Mus musculus with 8 samples.

Results

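The genes described here encode the nuclear-encoded subunits of the 5 enzyme complexes of oxidative phosphorylation, followed across cultured mouse cortical neurons with and without depolarisation and with and without Rem2. The members were the protein-coding genes whose symbols begin with Ndufa, Ndufb, Ndufc, Ndufs, Ndufv, Uqcr, Cox4i, Cox5, Cox6, Cox7, Cox8 or Atp5, together with Sdha to Sdhd and Cyc1, without the Ndufaf assembly factors, and with a value above 0 in all 8 libraries. The deposited values held 88 candidate symbols and 82 qualified, out of 23942 genes in all. Cox8b, Cox8c, Ndufa4l2 and Ndufs5 were listed at 0 in at least 1 library, Cox7c-ps1 and Ndufs5-ps are annotated as pseudogenes. By complex the members were 35 genes of complex I (7 for its catalytic core and 28 accessory), 4 of complex II, 9 of complex III, 17 of complex IV with Ndufa4 counted there, and 17 of complex V.

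The respiratory chain passes electrons from NADH (complex I) and succinate (complex II) through ubiquinone, complex III and cytochrome c to oxygen at complex IV. The complexes that pump protons charge the inner mitochondrial membrane, and the ATP synthase, complex V, uses that charge to make ATP. Neurons depend on this supply for ion pumping and transmission, and nearly all subunits are nuclear genes whose products are imported and joined with a few subunits made inside the mitochondrion.

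The cultures came from mouse cortex at embryonic day 16.5 and were grown for 6 days in Neurobasal medium with B27. All were silenced with 1 µM tetrodotoxin, a sodium channel blocker, overnight from day 5, and the KCl groups were then depolarised with 55 mM KCl for 4 h on day 6. Control and Rem2 KO cultures were each collected with and without KCl, which makes 4 groups, and every group has 2 replicates numbered 1 and 2. Rem2 is an RGK-family GTPase; proteins of this family inhibit voltage-gated calcium channels. The genotype field reads Rem2 flx/flx in all 8 libraries, so the groups rest on the sample titles, and the source of Cre, the removed exons and whether the replicates came from separate litters were not stated. P-values therefore measure the spread between these samples.

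Values are FPKM, fragment counts scaled to transcript length and to the mapped fragments of the library, summed over the transcripts of a gene, and the depth is unknown from the deposited values. FPKM sums per library were 434497 to 472618, and 11995 to 12768 genes reached 1 FPKM. The summed FPKM of 8 neuronal markers was 2337 to 2822, that of 7 astrocyte and radial glia markers 1381 to 1966, and that of 7 microglial markers 4.03 to 16.5, with no marker on these lists at 0 in every library, so the cultures held glial as well as neuronal transcripts. Rem2 was 6.29 and 2.54 FPKM in Control and 2.13 and 1.7 in Rem2 KO, and with KCl 22.5 and 21.4 against 11.7 and 12.4. It was lower in the knockout libraries in every same-numbered comparison, but the difference did not pass the test (limma, adjusted p = 1.0 in both states). Replicate number was the largest axis of variation, 49.1% of the variance against 32.5% for the component that separated KCl, so tests were made both without and with the replicate number as a block, a term that compares same-numbered libraries. In bulk RNA fewer cells of a type and less RNA per cell cannot be told apart.

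Promoters of members are shown first, because the genes of these complexes are known for recognition sequences of the activators NRF1 and GABP (an ETS-family factor) near their start sites. The transcripts of Nrf1 and of the GABP subunit gene Gabpb1 changed in these cultures, and whether this bears on the members was not tested. RefSeq promoters of build GRCm38.p6, 250 bases before to 50 after the start, were matched for 67 of the 82 members; those without an entry included Atp5a1, Atp5mpl, Cox4i1, Cox4i2, Cox6a2, Cox6c, Cyc1, Ndufa2, Ndufb9, Ndufs1, Sdhc, Uqcrb, Uqcrc2 and Uqcrq. Capitals mark matches on either strand to 6 motifs: NRF1, ETS (CCGGAAG), YY1 (AAGATGGC), a cyclic AMP response element (TGACGTCA), ERR (TCAAGGTCA) and SP1 (GGGCGG). The set holds Cox6a1, a highly abundant subunit with several matches, Ndufs8 and Ndufa8, which were lower with KCl, and Ndufb2, which was higher. They lie at chr5:115348909-115349208 (minus strand), chr19:3912725-3913024 (minus), chr2:36049289-36049588 (minus) and chr6:39592315-39592614 (plus).
Cox6a1: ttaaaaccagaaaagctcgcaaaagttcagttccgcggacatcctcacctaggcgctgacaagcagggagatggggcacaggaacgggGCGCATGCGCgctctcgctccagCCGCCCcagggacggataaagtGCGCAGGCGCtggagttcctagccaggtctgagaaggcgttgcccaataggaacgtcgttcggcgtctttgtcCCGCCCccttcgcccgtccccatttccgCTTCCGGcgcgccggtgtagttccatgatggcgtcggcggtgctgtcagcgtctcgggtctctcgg
Ndufs8: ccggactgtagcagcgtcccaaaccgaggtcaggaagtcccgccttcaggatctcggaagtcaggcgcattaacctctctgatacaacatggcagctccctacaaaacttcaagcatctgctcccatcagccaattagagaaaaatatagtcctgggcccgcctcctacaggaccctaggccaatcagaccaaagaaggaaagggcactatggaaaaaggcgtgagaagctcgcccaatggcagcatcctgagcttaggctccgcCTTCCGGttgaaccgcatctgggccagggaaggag
Ndufa8: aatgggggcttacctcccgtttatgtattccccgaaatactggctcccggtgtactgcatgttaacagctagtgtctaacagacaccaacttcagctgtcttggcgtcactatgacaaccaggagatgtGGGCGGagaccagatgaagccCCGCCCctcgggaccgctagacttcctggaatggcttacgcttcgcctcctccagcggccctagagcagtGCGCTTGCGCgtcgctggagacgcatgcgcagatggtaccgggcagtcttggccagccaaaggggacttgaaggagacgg
Ndufb2: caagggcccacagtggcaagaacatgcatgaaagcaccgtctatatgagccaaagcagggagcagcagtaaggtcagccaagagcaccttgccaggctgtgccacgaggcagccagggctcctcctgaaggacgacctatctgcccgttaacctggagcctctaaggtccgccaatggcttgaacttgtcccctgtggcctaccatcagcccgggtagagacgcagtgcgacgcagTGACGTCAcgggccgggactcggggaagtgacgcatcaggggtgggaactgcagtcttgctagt

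Cox6a1 held 2 NRF1 matches, an ETS match and 2 SP1 matches, Ndufs8 a single ETS match, Ndufa8 an NRF1 and 2 SP1 matches, and Ndufb2 the cyclic AMP response element. Among all 67 promoters the NRF1 motif occurred in 16, or 23.9%, against 11.5% of the 10370 tested genes with a promoter. The ETS motif occurred in 17 (25.4%, against 19.5%) and the YY1 motif in 10 (14.9%, against 5.21%). The cyclic AMP response element was found in 4, Ndufa10, Ndufa11, Ndufb2 and Uqcrfs1 (5.97%, against 3.75%), and the ERR motif in 2 (2.99%, against 0.289%). SP1 went the other way, with 29 promoters or 43.3% against 70.0% of tested genes. In the averaged KCl comparison with the block described below, NRF1 matches were in 1 of 9 promoters of members that rose and 4 of 12 of those that fell. ETS matches were in 2 of 9 and 3 of 12, and SP1 matches in 3 of 9 and 8 of 12. The cyclic AMP response element was in 1 of 9, that of Ndufb2, and 0 of 12, YY1 matches in 0 and 1, and ERR matches in 1 and 0. These counts are too small to compare. A match is a stretch of letters and not a measured binding site.

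Nearly all members were among the most abundant transcripts of the cultures. Of the 80 members that passed the filter of 1 FPKM in at least 2 libraries, 70 were in the top 10% of the 13140 genes tested by mean FPKM and 52 in the top 5%. Together the 82 members made up 3.31% to 3.97% of all FPKM per library. FPKM is scaled to transcript length, so levels are set beside each other here, although any effect of length that remains was not tested. The median member was 70.5 FPKM in the complex I core, 124 among complex I accessory subunits, 89.4 in complex II and 156 in complex III. It was 294 among the 13 complex IV members of at least 10 FPKM and 296 in complex V. The lowest and highest core subunits differed 2.42-fold, Ndufs1 at 38.6 and Ndufs7 at 93.3 FPKM, whereas accessory subunits ranged from Ndufa11 at 21.8 to Ndufa3 at 262.

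The highest member of each complex gives the scale. Ndufa3, an accessory subunit of the complex I membrane arm, was 278 and 237 FPKM in Control, 247 and 252 with KCl, 265 and 304 in Rem2 KO, and 265 and 245 with KCl. Sdhb, the iron-sulfur subunit of complex II, was 124 and 137, 100.1 and 122, 112 and 156, and 106 and 122 in the same order. Uqcrh, the hinge protein at cytochrome c1 in complex III, was 301 and 314, 339.6 and 377, 279 and 356, and 359 and 362. Libraries with and without KCl overlapped for Ndufa3 in both genotypes and for Sdhb in Rem2 KO, and those of Uqcrh did not overlap in either. Ndufa4, long counted with complex I and now placed in complex IV, was 598 and 678, 531 and 727, 551 and 783, and 622 and 693 FPKM, and the libraries with and without KCl overlapped in both genotypes. Atp5b, the catalytic beta subunit of complex V, is described with the members that responded to KCl.

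For most isoform genes of complex IV the form known from many tissues was high and the form known from muscle, lung or hypoxia low. Cox4i1, the common form, was 461 to 593 FPKM, and Cox4i2, the form known from lung and hypoxia, was 0.178 to 0.684 FPKM, or 0.0345% to 0.148% of their sum. Cox6a1 was 444 to 742 FPKM, while Cox6a2, the heart and muscle form, was 0.509 to 3.76. Cox7a2 was 189 to 268 FPKM against 1.24 to 3.70 for the muscle form Cox7a1. Cox8a was 460.4 to 595 FPKM, and its muscle counterpart Cox8b was at most 2.45 FPKM and listed at 0 in 2 libraries. Ndufa4l2, the hypoxia-responsive relative of Ndufa4, was listed at 0 in all 8. The exception was Cox6b2, best known from testis, at 36.9 to 154 FPKM and 6.08% to 19.0% of the Cox6b1 and Cox6b2 sum. Cox6b2 was higher in every number 2 library (83.0 to 154) than in any number 1 library (36.9 to 43.4). Cox7b2, at 0.0633 to 0.449 FPKM, and Cox4i2 were the 2 members too low to be tested.

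**Figure D1:**
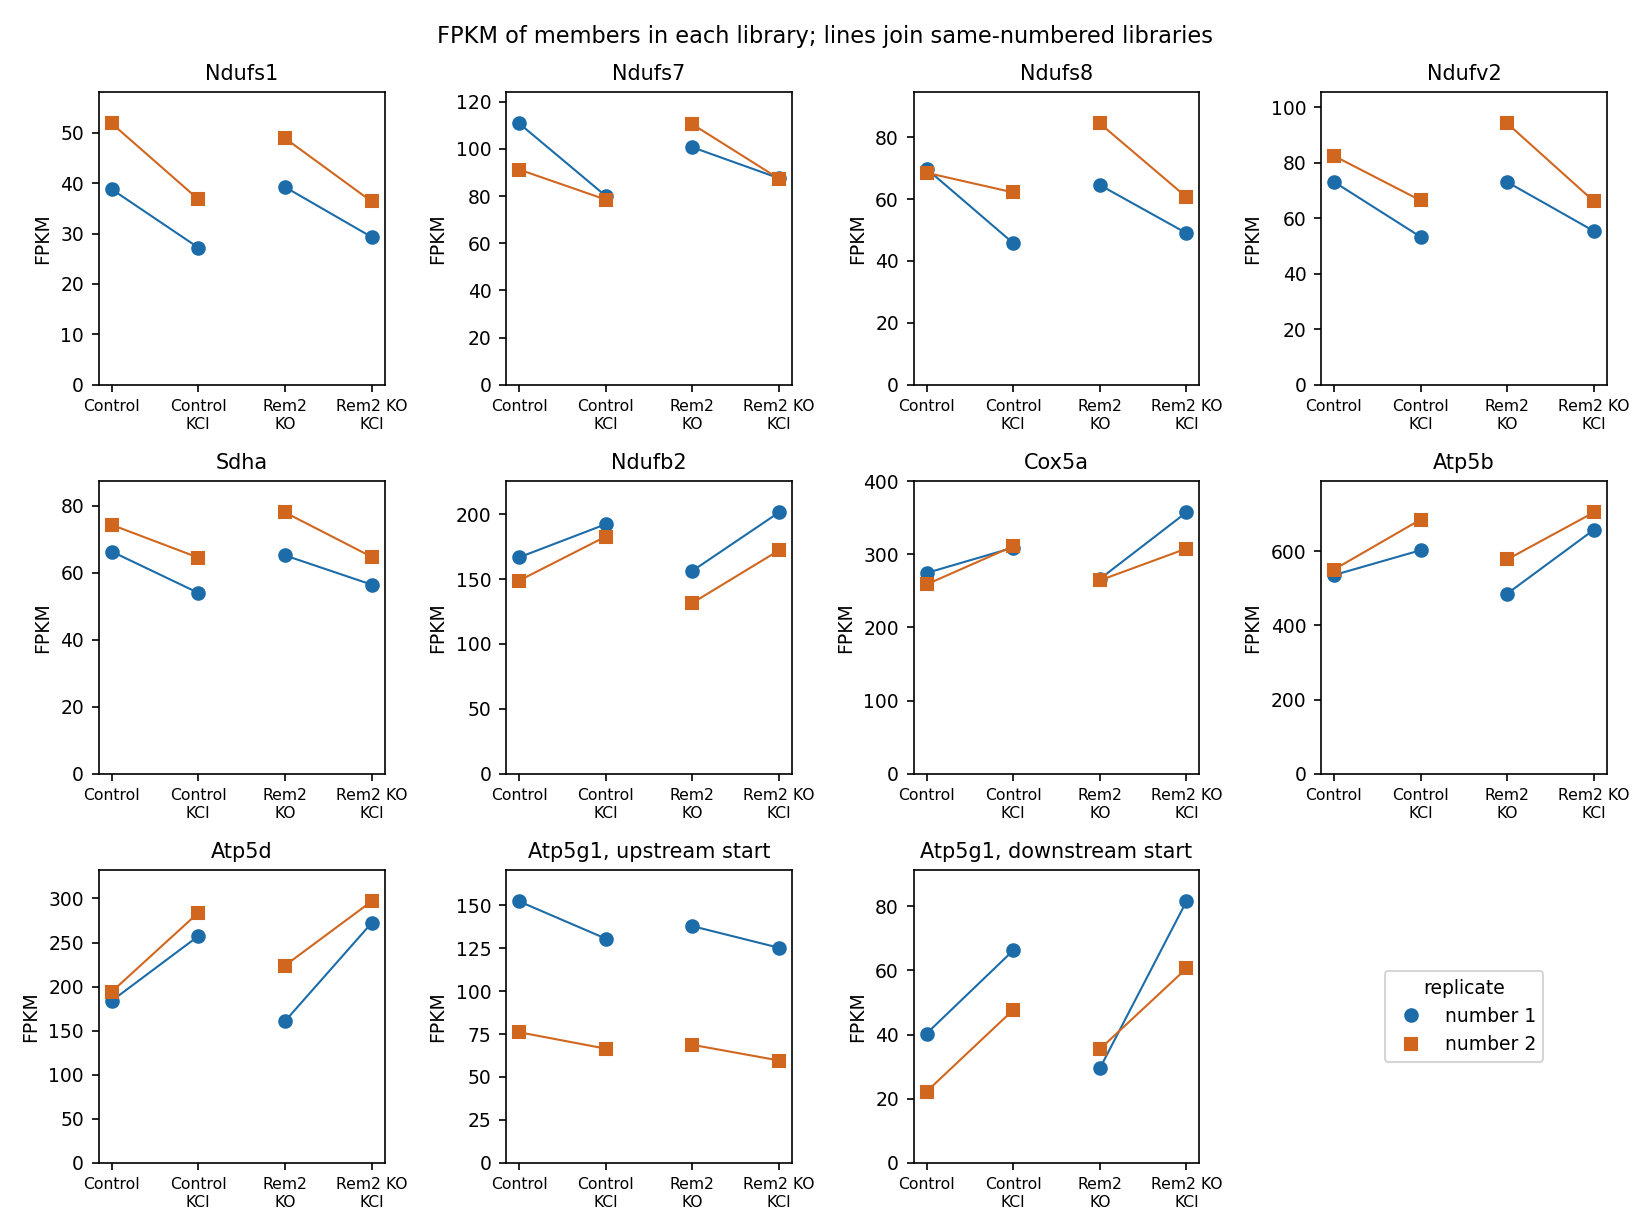
FPKM (y axis, from 0) in each of the 8 libraries for 9 members and for the 2 Atp5g1 transcripts; circles are replicate number 1, squares number 2, and lines join libraries of the same number without and with KCl. Ndufs1, Ndufs7, Ndufs8, Ndufv2 and Sdha lie lower and Ndufb2, Cox5a, Atp5b and Atp5d higher with KCl in all 4 pairs, and the Atp5g1 transcripts move in opposite directions.

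With the block, 5 of the 7 core subunits of complex I, which carry its flavin and iron-sulfur centres, fell with KCl in each genotype. Of the 17 complex V subunits 1 rose and 1 fell in Control, and 4 rose in Rem2 KO. Of all genes 14.4% rose and 34.3% fell in Control, and 16.1% rose and 31.4% fell in Rem2 KO. The median member lay near 0. Without the block no member passed in either genotype, and a difference between complexes was not tested. The question is which subunit transcripts differ after 4 h of KCl in each genotype. Tests were made with limma on log2(FPKM + 1), p-values adjusted over all 13140 genes, and a threshold of 0.05. Fold changes on this scale understate changes of low genes. Without the block 0 of 80 members rose in Control, where 5.2% of all genes rose, and 0 fell, where 12.2% fell; 3 members had an unadjusted p under 0.05. In Rem2 KO it was also 0 and 0, against 5.74% and 10.3% of all genes, with 6 members at an unadjusted p under 0.05. With the block 2 members rose and 9 fell in Control (background 14.4% and 34.3%), and 9 rose and 6 fell in Rem2 KO (background 16.1% and 31.4%). The members' shares, 2.5% and 11.2% in Control and 11.2% and 7.5% in Rem2 KO, were below those of all genes in each direction, and at or below them under the 3 other scalings with the block. Of the fits with the block that left out 1 library, the exception was the fit without Rem2 KO number 2, where 16.2% of members rose in Rem2 KO against 14.7% of all genes. These counts rested on single libraries: in Control 16 fell without either silenced Rem2 KO library, 2 without Control with KCl number 1 and 3 without Control number 1 or Control with KCl number 2. In Rem2 KO 0 rose without Rem2 KO with KCl number 1 and 13 without Rem2 KO number 2, and 17 fell without Rem2 KO number 1 and 2 without Rem2 KO with KCl number 2. The median log2 fold change of members was -0.01 in Control and 0.00 in Rem2 KO, against -0.14 and -0.12 over all genes. The sign of the members' median follows the scaling, from -0.08 and -0.12 after quantile normalization to 0.19 and 0.15 after TMM-type scaling, which moves the median of all genes by 0.17 and 0.13.

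Of the 7 core subunits of complex I, 5 fell in Control and 5 in Rem2 KO with the block, and their median log2 fold changes were -0.37 and -0.41. All 7 were lower with KCl in Control and 6 of 7 in Rem2 KO. After TMM-type scaling 6 of 7 were lower in each genotype and 3 passed with the block in each. In all 4 same-numbered pairs 6 of the 7 core subunits were lower, as were 15 of the 80 members (18.8%) and 46.8% of all genes tested; 11 members (13.8%) and 23.7% of all genes were higher in all 4.

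Ndufs1, the largest iron-sulfur subunit on the path of electrons from NADH (chromosome 1, 63143592 to 63176822), was 38.8 and 51.8 FPKM in Control and 27.2 and 36.8 with KCl, and 39.2 and 48.9 in Rem2 KO and 29.3 and 36.4 with KCl. The KCl libraries did not overlap those without KCl in either genotype. The log2 fold change was -0.49 in Control (SE 0.07, limma with the block, adjusted p = 0.00156; 0.198 without it) and -0.41 in Rem2 KO (SE 0.07, adjusted p = 0.00313; 0.281 without it). Ndufs1 passed with the block in each of 8 fits that left out 1 library, in both genotypes.

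Ndufv2, a small iron-sulfur subunit beside the NADH site (chromosome 17, 66078795 to 66101559), was 73.1 and 82.4, then 53.3 and 66.4 FPKM in Control, and 73.0 and 94.1, then 55.3 and 66.1 in Rem2 KO, with no overlap. It fell by 0.38 and by 0.45 on the log2 scale (SE 0.07 each, limma with the block, adjusted p = 0.00534 and 0.0029; 0.216 and 0.156 without). Ndufv2 lost the call in Control in 1 of the 8 fits with the block that left out a library.

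Ndufs8, which holds the iron-sulfur centres next to the quinone site, was 69.8 and 68.5 FPKM in Control and 45.8 and 62.1 with KCl, and 64.5 and 84.4 in Rem2 KO and 49.0 and 60.6 with KCl. The fall was 0.37 and 0.43 (limma with the block, adjusted p = 0.0371 and 0.0219; 0.283 and 0.215 without), larger in number 1 than in number 2 of Control, and passed in 3 and 5 of the 8 fits without a library. Ndufs7, which carries the last iron-sulfur centre before ubiquinone, was 111 and 91.2, then 80.05 and 78.5 in Control, and 101 and 110.4, then 87.5 and 87.3 in Rem2 KO. It fell in Control (log2 fold change -0.34, limma with the block, adjusted p = 0.0314; 0.109 without) and did not pass in Rem2 KO (-0.27, adjusted p = 0.0687; 0.191 without). Ndufs3 went from 102 and 52.9 to 85.7 and 46.9 in Control and from 91.4 and 65.4 to 78.8 and 45.5 in Rem2 KO, passing in Rem2 KO with the block (limma adjusted p = 0.0375; 0.683 without). The calls for Ndufs7 in Control and Ndufs3 in Rem2 KO did not hold in every fit that left out 1 library. Their log2 fold changes in those fits ran from -0.495 to -0.183 and from -0.554 to -0.172. A transcript at least 95% identical to Ndufs3 is annotated elsewhere, so the level of Ndufs3 is uncertain. Ndufv1, which binds NADH and the flavin, was the exception, at 64.6 and 68.7 and then 52.2 and 66.0 in Control, and 58.2 and 67.3 and then 59.6 and 67.5 in Rem2 KO, with log2 fold changes of -0.18 and 0.02 that did not pass.

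The 28 accessory subunits of complex I had medians of -0.06 and -0.05, with 17 of 28 below 0 in each genotype, and turned to 0.13 and 0.10 after TMM-type scaling. Ndufb2, an accessory subunit of the membrane arm (chromosome 6, 39592565 to 39599843), was 167 and 149 FPKM in Control and 192 and 183 with KCl, and 156 and 132 in Rem2 KO and 201 and 172 with KCl. The groups did not overlap, and Ndufb2 rose in both (log2 fold change 0.25 and 0.37, limma with the block, adjusted p = 0.0289 and 0.00653; 0.293 and 0.131 without), although in Control it passed in only 2 of the 8 fits without a library. Ndufa1 and Ndufb6 rose in Rem2 KO alone among these fits, by 0.37 and 0.23, and Ndufa8 and Ndufb3 fell in Control, by 0.33 and 0.31, all with the block and none without it; the difference between genotypes was not past the threshold for any of them. None of the calls for Ndufa1, Ndufb6, Ndufa8 and Ndufb3 held in all 8 fits that left out 1 library. Ndufb3 has an annotated near-identical copy.

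In complex II, which also belongs to the citric acid cycle, Sdha carries the flavin that takes electrons from succinate. Sdha (chromosome 13, 74322255 to 74350240) was 66.3 and 74.3 FPKM in Control and 54.0 and 64.5 with KCl, and 65.2 and 78.0 in Rem2 KO and 56.5 and 64.8 with KCl, without overlap. It fell by 0.25 and by 0.23 on the log2 scale (SE 0.06 each, limma with the block, adjusted p = 0.0174 and 0.0214; 0.323 and 0.354 without). With the block Sdha fell under 3 of 4 scalings, and after TMM-type scaling its log2 fold changes were -0.05 and -0.09. In neither genotype did the call hold in every fit that left out 1 library. Sdhb had log2 fold changes of -0.23 and -0.22 that did not pass (limma with the block, adjusted p = 0.0739 and 0.0911; 0.482 and 0.518 without). After TMM-type scaling with the block they were -0.04 and -0.07. The membrane anchors differed: Sdhc was 109.8 and 103, then 87.9 and 92.8 in Control and 101 and 99.7, then 85.6 and 101 in Rem2 KO, and Sdhd stayed between 77.1 and 84.2 in all 8 libraries. Neither passed.

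No complex III member passed in either genotype, with or without the block. Its medians were -0.01 and -0.04, turning to 0.19 and 0.11 after TMM-type scaling, and its members ranged from -0.12 to 0.22 in Control and -0.14 to 0.21 in Rem2 KO. Uqcrh was the member with the highest level and log2 fold changes of 0.22 and 0.19. In complex IV the medians were 0.10 and 0.07, the second turning to -0.08 after quantile normalization. Cox5a, a matrix-side subunit (chromosome 9, 57517328 to 57532427), was 274 and 259 FPKM in Control and 309 and 311 with KCl, and 266 and 264 in Rem2 KO and 357 and 308 with KCl, with no overlap. It rose in Rem2 KO (log2 fold change 0.32, SE 0.08, limma with the block, adjusted p = 0.0195; 0.137 without) and had a log2 fold change of 0.22 in Control that did not pass (adjusted p = 0.0696). Cox8a, in the membrane part of the enzyme, was 564 and 497, then 549 and 549.6 FPKM in Control, and 493 and 460.4, then 580.0 and 595 in Rem2 KO, where it rose with the block (0.30, limma adjusted p = 0.0313; 0.212 without), and in 3 of 8 fits without a library. Cox4i1, Cox6a1, Cox6b1, Cox7a2 and Cox7a2l, a supercomplex assembly factor by its known role, did not pass in either genotype, with log2 fold changes between -0.17 and 0.19.

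In complex V 13 of 17 members were above 0 in each genotype, with medians of 0.08 and 0.10 that turned to -0.05 and -0.08 after quantile normalization; with the block 1 member rose and 1 fell in Control and 4 rose in Rem2 KO. Atp5d, the delta subunit of the central stalk (chromosome 10, 80138698 to 80145828), showed the highest rise of any member: 184 and 194 FPKM in Control against 257 and 284 with KCl, and 161 and 224 in Rem2 KO against 272 and 297. No library with KCl overlapped those without. The log2 fold change was 0.51 in Control, a 1.43-fold increase (SE 0.11, limma with the block, adjusted p = 0.00892; 0.104 without), and 0.58 in Rem2 KO, 1.5-fold (adjusted p = 0.00578; 0.0803 without). Atp5b (chromosome 10, 128083307 to 128090388) was 535 and 550.2 FPKM in Control and 602 and 685 with KCl, and 485 and 578 in Rem2 KO and 657 and 704 with KCl, again without overlap. It rose in Rem2 KO (0.36, SE 0.09, limma with the block, adjusted p = 0.0163; 0.197 without), and the value in Control was 0.24.

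The c subunit, which forms the rotor ring, is encoded by 3 genes whose mature proteins are the same and whose import sequences differ. Atp5g3, the most abundant, was 444 and 456 FPKM in Control and 439.9 and 551 with KCl, and 387 and 407 in Rem2 KO and 515 and 522 with KCl. It rose in Rem2 KO (0.38, limma with the block, adjusted p = 0.0203; 0.157 without) and had a value of 0.13 in Control. Atp5g2 was 306 and 197, then 242 and 171 in Control, where it fell with the block (-0.27, limma adjusted p = 0.0335; 0.712 without), and 288 and 172, then 269.7 and 181 in Rem2 KO. Summed over the 3 genes the level was 943 and 751, then 879 and 837 FPKM in Control, and 843 and 683, then 991 and 823 in Rem2 KO. The sum overlapped between states in both genotypes. The calls for Atp5g2 in Control and Atp5g3 in Rem2 KO did not hold in every fit that left out 1 library. Atp5g1 and Atp5g2 have annotated near-identical copies.

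The transcripts of other members are not compared here, and those of Atp5g1 moved apart. Both of its transcripts carry the same 4 coding exons on the minus strand of chromosome 11 (GENCODE M21) and differ in where they begin and end. The upstream start is at 96075670 and the downstream start at 96075619, 51 bases apart. The upstream-start transcript ends at 96068852 and the downstream-start transcript at 96072990. The names used here refer to the starts, and whether a shift between the transcripts lies at the start or at the end was not tested. The upstream-start transcript was 152 and 76.0 FPKM in Control and 131 and 66.5 with KCl, and 138 and 68.7 in Rem2 KO and 125 and 59.6 with KCl. The downstream-start transcript was 40.3 and 22.2 in Control and 66.2 and 47.7 with KCl, and 29.4 and 35.5 in Rem2 KO and 81.6 and 60.6 with KCl. Its share of Atp5g1 went from 20.9% and 22.6% to 33.7% and 41.8% in Control, and from 17.6% and 34% to 39.4% and 50.4% in Rem2 KO, higher in all 4 same-numbered pairs. Tested over 16846 transcripts with the genotypes averaged, a comparison added after the data were seen, the downstream-start transcript rose (log2 fold change 0.99, SE 0.23, limma adjusted p = 0.032; with the block SE 0.18, adjusted p = 0.0124). The upstream-start transcript fell by 0.19 with the block (limma adjusted p = 0.0142; 0.832 without). Within a genotype neither passed without the block, where the downstream-start transcript had limma adjusted p = 0.164 (Control) and 0.105 (Rem2 KO). With the block the downstream-start transcript passed in Rem2 KO (limma adjusted p = 0.0374) and not in Control (0.0634), and the upstream-start transcript in Control (0.043) and not in Rem2 KO (0.0698). Summed over both transcripts Atp5g1 had log2 fold changes of 0.12 in Control and 0.26 in Rem2 KO, where it passed with the block (limma adjusted p = 0.0445; 0.809 without). That call did not hold in every fit that left out 1 library. The division of reads between transcripts that share all but their ends is Cufflinks' estimate.

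**Figure D2:**
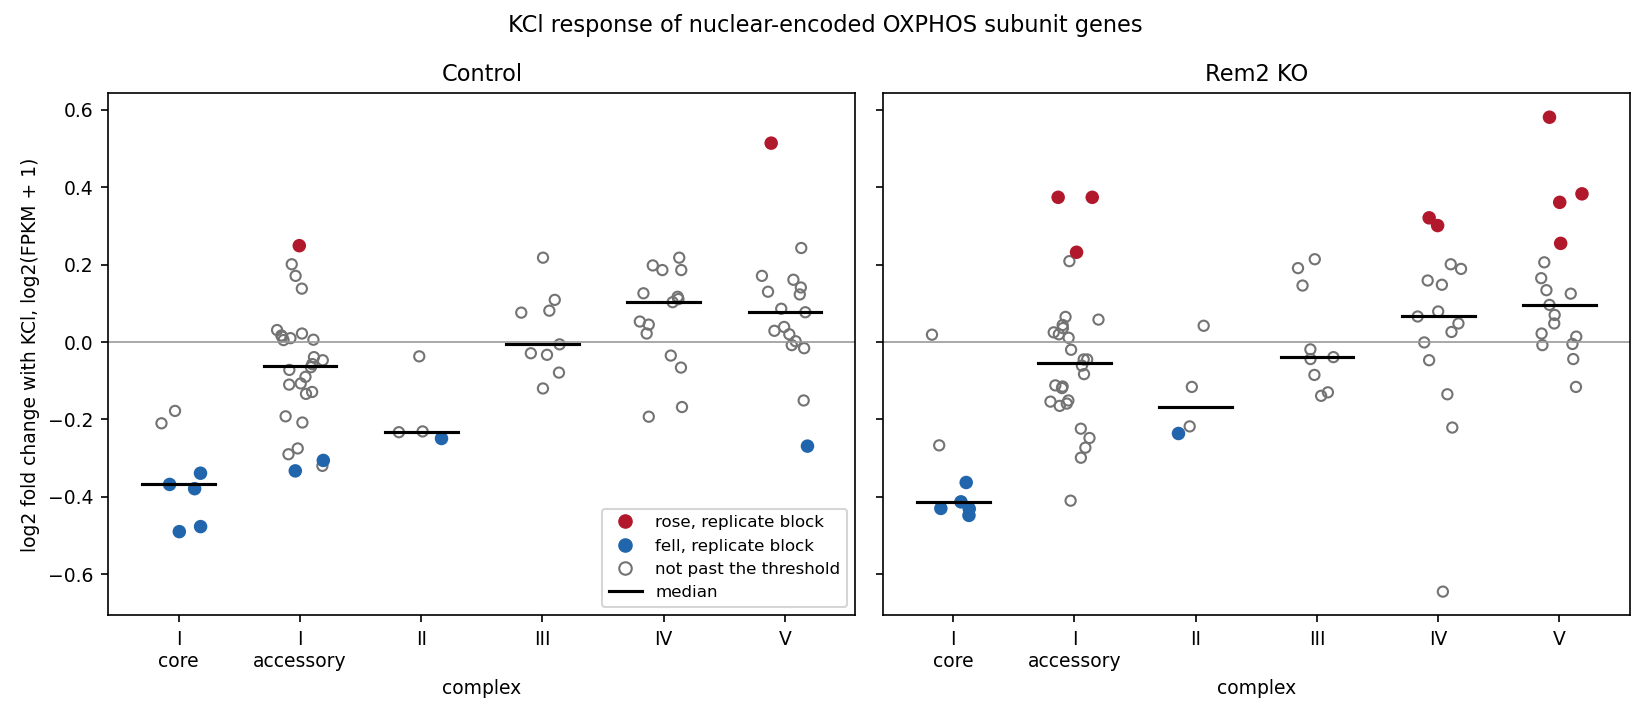
Log2 fold change with KCl (y axis, on log2(FPKM + 1)) of the 80 tested members by complex (x axis), in Control (left) and Rem2 KO (right); filled points rose (red) or fell (blue) in limma with the replicate block, open points did not pass, and bars are medians. The complex I core lies lowest, at medians of -0.37 and -0.41, and 13 of 17 complex V members above 0 (medians below 0 after quantile normalization), with Atp5d highest in both panels.

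Averaging the KCl effect over both genotypes, a comparison added after the data were seen, used all 8 libraries for 1 contrast. Without the block Atp5d rose (log2 fold change 0.55, SE 0.13, limma adjusted p = 0.0209) and Ndufs7 (-0.30, SE 0.08, adjusted p = 0.0382) fell. In all 1 of 80 members rose, against 10.5% of all genes, and 2 of 80 fell, against 22.9%. These calls are fragile: leaving out 1 library left 0 to 2 members rising and 0 to 4 falling, and no member rose without any 1 of the Control, Control with KCl or Rem2 KO with KCl libraries. With the block 10 rose and 14 fell (background 20.2% and 41.8%), and 6 of the 14 were core subunits of complex I. Ndufs1, Ndufs7, Ndufs8, Ndufv2, Sdha, Atp5b, Atp5d, Ndufb2 and Cox5a passed with the block in all 8 fits without a library. Under 4 scalings with the block (as deposited, equal FPKM sums, TMM-type and quantile) Ndufs1, Ndufs8 and Ndufv2 fell and Atp5b, Atp5d and Ndufb2 rose each time. Other calls followed the scaling: with the block and TMM-type scaling 35 members (43.8%) rose and 4 (5.0%) fell, against 32.8% and 29.6% of all genes. With the block and quantile normalization 3 (3.75%) rose and 29 (36.2%) fell, against 28% and 32.8%, so the members exceeded the background among risers in the first and among fallers in the second. Without the members that have a near-identical annotated copy, 9 of 59 rose and 9 fell with the block. The 10 members that rose with the block had a median transcript length of 608.5 bases, and the 14 that fell 1061. The part of transcript length in these calls was not tested.

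Ratios within a library do not depend on a single factor that scales it. Quantile normalization can change them, and they were taken from the values as deposited. Summed FPKM of the 7 core subunits over that of the 17 complex V subunits was 0.0887 and 0.108 in Control and 0.0657 and 0.0797 with KCl, and 0.0911 and 0.11 in Rem2 KO and 0.0619 and 0.0826 with KCl. The ratio was lower with KCl in all 4 same-numbered pairs. Ndufs1 over Ndufb2, both subunits of complex I, was 0.233 and 0.348 in Control and 0.142 and 0.201 with KCl, and 0.251 and 0.372 in Rem2 KO and 0.146 and 0.211 with KCl, also lower in all 4 pairs. These genes were picked for their response, so the ratios describe and test nothing. A ratio shows that the parts changed unequally and not which of them changed.

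**Figure D3:**
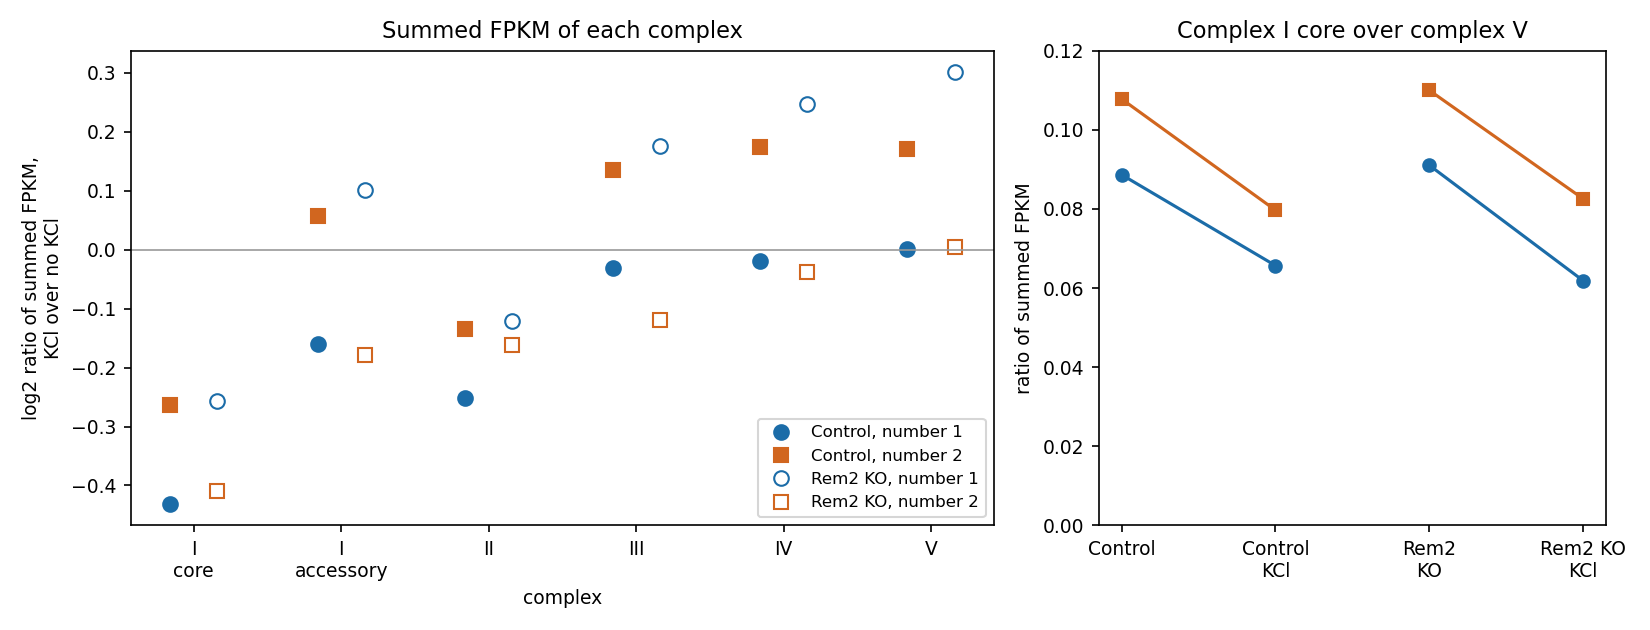
Left, log2 ratio of the summed FPKM of each complex with KCl over without (y axis) within same-numbered libraries (circles number 1, squares number 2, filled Control, open Rem2 KO). Right, summed FPKM of the complex I core divided by that of complex V in each library (y axis, from 0). Core and complex II sums lie below 0 in all 4 pairs, complex V lies at or above 0, and the other sums have pairs on both sides of 0, and the core to complex V ratio falls from 0.0887 and 0.108 to 0.0657 and 0.0797 in Control.

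By sums the complexes lined up in the same order in each genotype. The core of complex I was lower with KCl by 0.35 in Control and 0.34 in Rem2 KO on the log2 scale (-0.43 and -0.26 within numbers 1 and 2 of Control, -0.26 and -0.41 in Rem2 KO). Complex II had log2 ratios of -0.19 and -0.14, and within pairs of -0.25, -0.14, -0.12 and -0.16. Complex IV had 0.07 and 0.11 and complex V 0.08 and 0.16, but within pairs the complex V values ran from 0.00 to 0.30, and those of complexes III and IV changed sign. All members summed gave 0.03 and 0.07.

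Markers of cell types were read beside the KCl result. The summed FPKM of 6 interneuron markers, Sst and Gad1 among them, was 290.4 to 395.5 without KCl and 1241 to 1629 with it, and that of 7 excitatory markers was 348 to 426 and 541 to 693. Of the 7 astrocyte and radial glia markers 0 passed without the block, at sums of 1568 to 1966 without and 1381 to 1925 with KCl. The part of these shifts in the members' values was not tested.

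No subunit gene passed the test for a difference between genotypes, with or without the block. The comparison asks which subunit transcripts differ between Rem2 KO and Control, in silenced and in depolarised cultures. Of 80 members 0 rose and 0 fell without KCl, against 0.0152% and 0.00761% of all genes, and 0 and 0 with KCl, against 0.00761% and 0.0381%. The same held for the averaged genotype effect (background 0.0% and 0.00761%) and for the interaction, which asks whether the KCl response differs between genotypes (background 0.00761% and 0.0%). At an unadjusted p under 0.05 without the block there were 0 members in each of the 4 comparisons. With the block the counts stayed at 0 in all 4, where 0.0152% of all genes rose and 0.0152% fell without KCl, 0.00761% and 0.0685% with KCl, 0.0761% and 0.35% for the average, and 0.0152% and 0.0533% for the interaction. The block left 2, 1, 2 and 0 members at an unadjusted p under 0.05 in that order. Median log2 differences of members, Rem2 KO minus Control, were 0.05 without KCl and 0.07 with it, against -0.02 and 0.02 over all genes. The summed FPKM of all members went in opposite directions in the 2 silenced pairs, -0.13 in number 1 and 0.20 in number 2.

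With the block, the members nearest to a genotype difference were the minor isoforms Cox6b2 and Cox6a2, in silenced cultures and for the averaged effect. With KCl the nearest was Ndufa9, an accessory subunit of complex I, whose log2 difference of 0.18 did not pass. Without the block other members, Ndufb7 and Ndufs7 among them, ranked ahead of Cox6b2 in the averaged effect. Cox6a2 was 3.76 and 0.886 FPKM in Control against 1.01 and 0.509 in Rem2 KO, and with KCl 3.02 and 0.708 against 1.21 and 0.781, so the groups overlapped. Its averaged log2 difference was -0.59 (SE 0.40, limma adjusted p = 1.0; 0.333 with the block). Cox6b2 was 36.9 and 83.0 in Control against 43.1 and 154 in Rem2 KO, and with KCl 38.8 and 84.2 against 43.4 and 113. It was higher in Rem2 KO in all 4 same-numbered pairs, as was Cox7a2l, and 2 of 80 members (2.5%) compare with 8.95% of all genes. Its averaged log2 difference was 0.42 (SE 0.57, limma adjusted p = 1.0; 0.262 with the block), and it passed with the block in 1 of the 8 fits that left out a library, the fit without Rem2 KO number 1 (0.57, adjusted p = 0.043).

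By absolute log2 values 50 of the 80 tested members differed more between replicate numbers than with KCl (genotypes averaged), 20 of the 21 with a near-identical copy and 30 of the 59 without. A search of GENCODE M21 transcripts found at least 1 near-identical copy (95% identity over 80% of the shorter sequence and at least 200 bases) for 21 members, and 34 of the 38 copies were annotated as pseudogenes. These 21 had a median log2 ratio of number 2 to number 1 of -0.75, against 0.10 for the 59 tested members without a copy. Ndufb4 was 129 to 181 FPKM in the number 1 libraries and 38.2 to 52.8 in number 2, and Ndufa12 was 137 to 175 and 36.0 to 51.8. Atp5md, at 506 to 667 and 193 to 223, differed alike without a copy found.

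For Ndufs5 and Cox7c the copy was in the deposited values as well. Ndufs5, a complex I accessory subunit that the rule left out, was listed at 105 to 130.2 FPKM in number 1 and at 0 in all 4 number 2 libraries, while its pseudogene was 28.3 to 32.3 and 227 to 272. Their sum as listed was 136.0 to 162.5 FPKM in number 1 and 227 to 272 in number 2. The pseudogene was kept out of the tests because its entries were duplicated or incomplete, and its level adds up 2 entries. A duplicated entry would make that level too high, so whether the sums overlap between numbers cannot be decided. Cox7c, a complex IV subunit, was 230.5 to 277 FPKM in number 1 and 136 to 175 in number 2, its pseudogene Cox7c-ps1 was 1.07 to 2.74 and 48.8 to 108, and their sum was 232 to 278 and 219 to 264, so the sums overlapped where the gene alone did not. Proliferation markers (39.0 to 45.8 FPKM in number 1, 88.0 to 117 in number 2) and microglial markers (4.03 to 5.32 and 11.7 to 16.5) also differed by number, and their part in these differences was not tested. Whether the numbers mark preparations or steps of processing cannot be told apart.

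**Figure D4:**
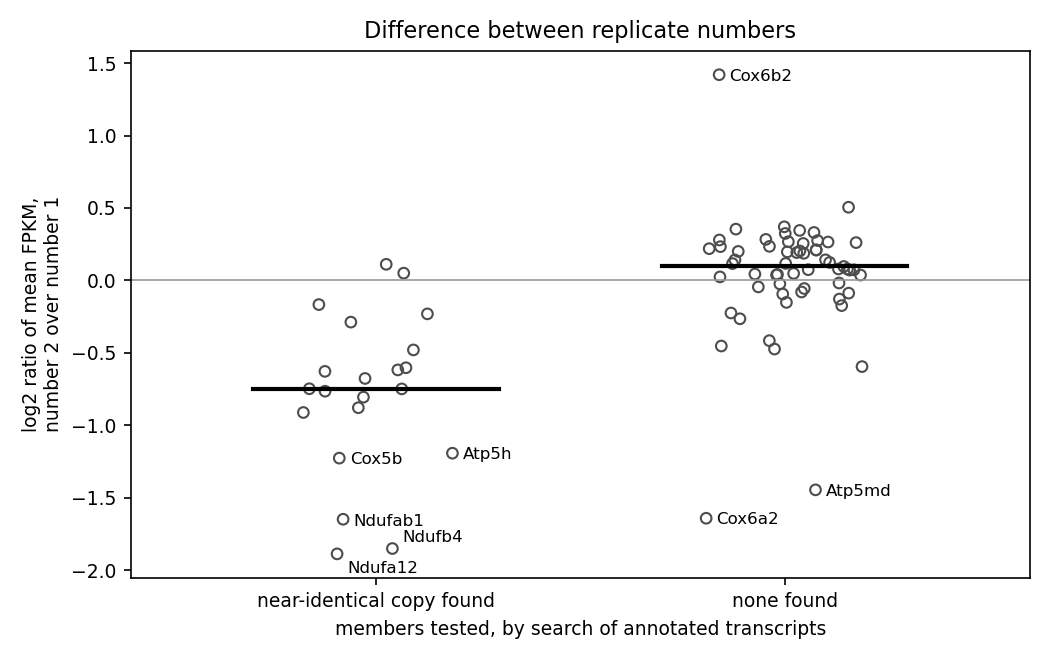
Log2 ratio of mean FPKM in the 4 number 2 libraries over the 4 number 1 libraries (y axis) for the 80 tested members, split by whether a near-identical annotated transcript was found (21 members) or not (59); bars are medians, -0.75 and 0.10.

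Other genes of the pathway are given by list, without and with the block. Of all genes 5.2% rose and 12.2% fell in Control and 5.74% and 10.3% in Rem2 KO without the block, and 14.4% and 34.3%, and 16.1% and 31.4%, with it. The lists were made with earlier results of these data known. Of 48 tested assembly factors, proteins that build the complexes without staying in them, 18 (37.5%) fell and 1 rose in Control and 17 (35.4%) fell and 1 rose in Rem2 KO without the block, with medians of -0.45 in both. With the block 31 (64.6%) and 30 (62.5%) fell and 1 rose in each. Cox18, which helps insert a complex IV subunit into the membrane, was 14.9 and 14.0 FPKM in Control and 5.67 and 6.24 with KCl, and 12.4 and 14.3 in Rem2 KO and 7.39 and 6.76 with KCl, a fall of 1.15 and 0.83 (limma, adjusted p = 0.00585 and 0.0112). Cox15, of heme A synthesis for complex IV, fell by 1.10 and 0.98 (limma, adjusted p = 0.00909 and 0.0129). Timmdc1, a complex I assembly factor, was 9.97 and 7.93, then 4.12 and 3.85 in Control, and 8.81 and 8.97, then 3.51 and 3.91 in Rem2 KO. The only factor that rose, Ttc19, was listed at 0 in the 4 libraries without KCl and at 24.96 to 28.7 FPKM with it, Cmc1 was listed at 0 in the 4 with KCl, and Surf1 was listed at 0 in both Rem2 KO libraries with KCl alone, patterns that a failed estimate can also give.

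Mitochondrial ribosomal proteins, which translate the mitochondrially encoded subunits, had medians of -0.35 and -0.31. Without the block 12 of 77 (15.6%) fell and 0 rose in Control and 11 (14.3%) fell and 0 rose in Rem2 KO, shares near those of all genes. With the block 51 (66.2%) fell and 0 rose in Control, and 43 (55.8%) fell and 2 rose in Rem2 KO. Mrpl10 went from 28.7 and 29.5 to 10.2 and 13.2 FPKM in Control and from 29.1 and 33.0 to 11.6 and 14.6 in Rem2 KO, log2 fold changes of -1.26 and -1.19 (limma, adjusted p = 0.00825 and 0.0101). Cytosolic ribosomal proteins had medians of 0.04 and 0.00, with 1 of 92, Rpl22, falling in each genotype without the block; with it 2 fell in each, and 3 rose in Rem2 KO. Of 11 tested genes of coenzyme Q synthesis 3 (27.3%) fell and 1 rose in each genotype without the block, and 6 and 5 fell and 1 rose with it; Coq9 fell by 1.14 and 1.01, and Coq10b, a coenzyme Q binding protein, went from 12.7 and 10.4 to 40.6 and 30.8 FPKM in Control and from 12.5 and 10.3 to 42.1 and 30.9 in Rem2 KO. The 13 mitochondrially encoded subunits were not among the genes kept from the deposited values, so they could not be analysed here.

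Of 15 carriers and exchange proteins 1 (6.67%) rose and 1 fell in each genotype without the block; with it 2 rose and 6 fell in Control and 3 rose and 4 fell in Rem2 KO. Slc25a3, the carrier that brings phosphate to the ATP synthase, was 179 and 187 FPKM in Control and 396 and 415 with KCl, and 164 and 194 in Rem2 KO and 418 and 461 with KCl. It rose by 1.14 and 1.29 on the log2 scale (limma, adjusted p = 0.00671 and 0.00567). Etfb, a subunit of the flavoprotein that hands electrons from fatty acid oxidation to the chain, fell by 0.69 and 0.59. In the list of 26 citric acid cycle and pyruvate genes, Pdk3 rose by 1.20 and 1.13 and Pdk1 fell by 0.78 and 0.88, both kinases that switch off pyruvate dehydrogenase, and no other passed without the block. With the block 2 rose and 6 fell in Control and 3 rose and 5 fell in Rem2 KO, Pdha1, a subunit of pyruvate dehydrogenase, among the risers (0.33 and 0.42, limma with the block, adjusted p = 0.00597 and 0.00259) and Fh1, fumarase, among those that fell (-0.51 and -0.56, adjusted p = 0.00166 and 0.00123).

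Among 14 tested regulators of mitochondrial gene expression 2 rose in each genotype and 1 fell in Rem2 KO without the block; with it 3 rose in each, and 4 fell in Control and 3 in Rem2 KO. Nrf1, an activator of subunit genes, was 8.02 and 9.44 FPKM in Control and 17.5 and 18.6 with KCl, and 7.32 and 9.78 in Rem2 KO and 19.0 and 19.1 with KCl, a rise of 0.97 and 1.08 (limma, adjusted p = 0.0126 and 0.0107). Gabpb1 rose by 0.76 and 0.70 (limma, adjusted p = 0.00856 and 0.0112), while Gabpa, the DNA-binding partner, had log2 fold changes of 0.01 and -0.02. Ppargc1a, the coactivator PGC-1alpha, was 2.54 to 4.37 FPKM in all 8 libraries and did not pass. Tfb2m, a mitochondrial transcription factor, fell in Rem2 KO by 0.69 (limma, adjusted p = 0.0316). Whether the changes in Nrf1 and Gabpb1 bear on the subunit genes was not tested.

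**Figure D5:**
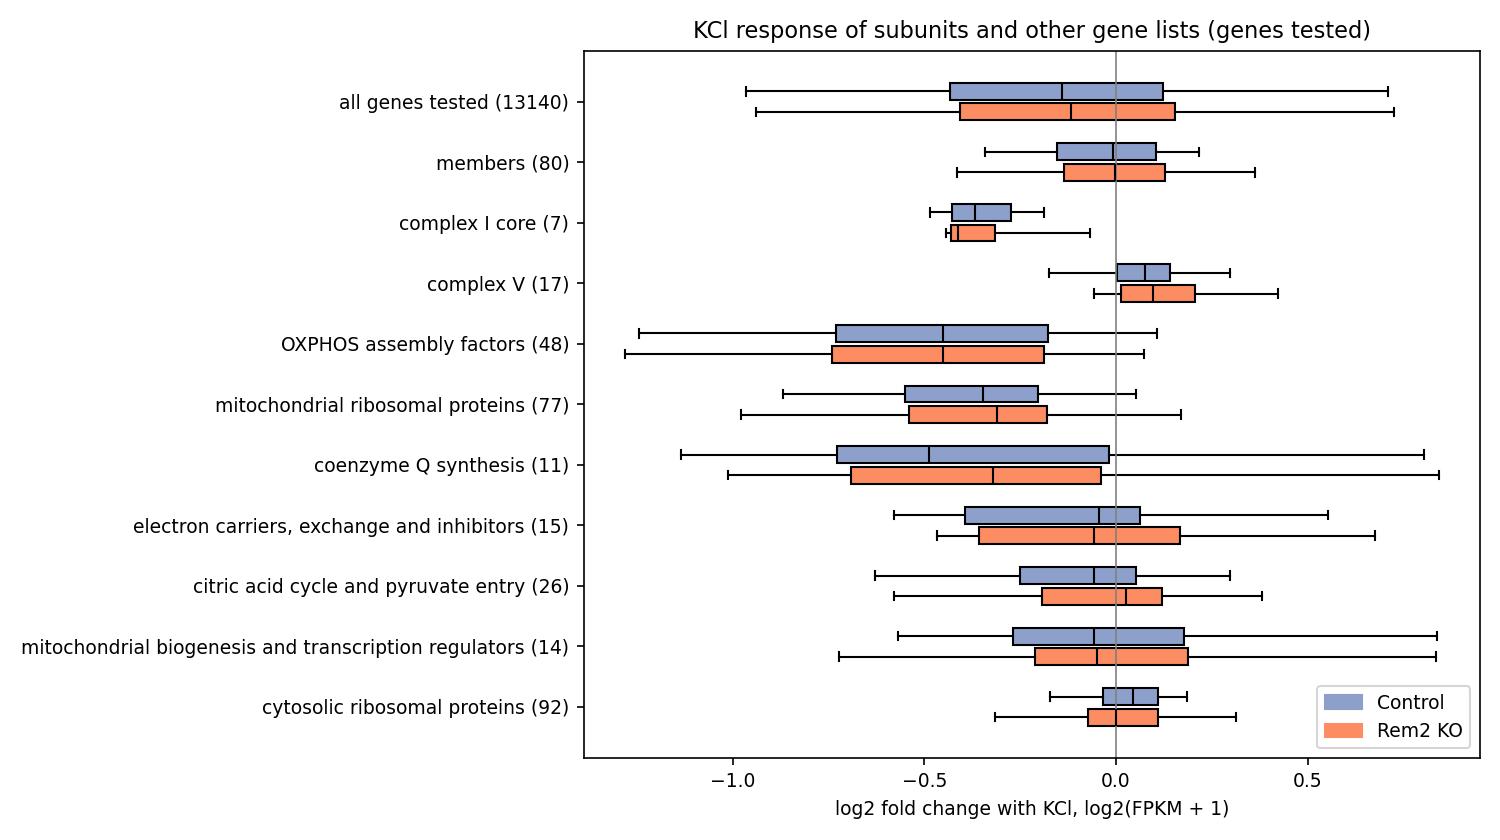
Log2 fold change with KCl (x axis) over all genes tested, the members, 2 groups of members and the other lists, in Control (blue) and Rem2 KO (orange), with the number of genes tested in brackets; boxes span the quartiles, the line is the median and whiskers reach the 5th and 95th percentiles. The members lie close to 0 like the cytosolic ribosomal proteins, and assembly factors and mitochondrial ribosomal proteins lie lower, at medians of -0.45 and -0.35 in Control.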

How the data were processed

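RNA from 8 cultures was sequenced after TruSeq library preparation from total RNA, per the labels. The authors deposited FPKM per RefSeq transcript and library, made with TopHat and Cufflinks on mm10 per the submitters' processing notes (versions not given in the sources used here).

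Of 34353 accessions 34205 were matched to genes of the RefSeq annotation of GRCm38.p6, and FPKM values were summed per gene; 306 genes with a repeated accession or missing value were left out. The members and lists were chosen with earlier results of these data known. Genes reaching 1 FPKM in 2 or more libraries (13140) entered limma 3.58.1 on log2(FPKM + 1) in R 4.3.3 (variance trend, 4 group means, 4 residual degrees of freedom, Benjamini-Hochberg over all genes, threshold 0.05). Same-numbered libraries deviated together from their group means (correlations 0.709 to 0.784 over 6 pairs of groups), so the replicate number entered a second fit as a block, which leaves 3 residual degrees of freedom. The steps were tested on simulated data with changes larger than those of the members, so that test does not cover changes of their size. Near-identical copies were found with BLAST 2.17.0.

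Named members are the highest of each complex, those past the threshold with the smallest p in each contrast (up to 8 without and 4 more with the block), isoform genes and Sdha to Sdhd; from other lists up to 4 with the smallest p. Other genes named were chosen after their values were seen. Alternatives were pseudocounts of 0.1 and 0.5, no filter or 5 FPKM, 3 other scalings, the block, no variance trend, the most abundant transcript alone, and leaving out each library. Of the members, 1 is counted in the totals and is otherwise not reported here.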

Additional observations from a re-analysis of the deposited data

How the results depend on the processing

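The counts of members that passed depended on the replicate block and the scaling. In Control, 1 member rose after TMM-type scaling; with the replicate block 2 rose and 9 fell, with the block and quantile normalization 1 and 17, with the block and equal FPKM sums 7 and 14, and with the block and TMM-type scaling 19 and 3. In Rem2 KO, 1 rose after TMM-type scaling; the block gave 9 and 6, with quantile normalization 3 and 20, with equal sums 9 and 14, and with TMM-type scaling 19 and 3. For the averaged KCl effect, TMM-type scaling alone left 6 rising, quantile normalization alone left 0 rising and 7 falling, and dropping the variance trend left 1 falling; the block gave 10 and 14, with quantile normalization 3 and 29, with equal sums 11 and 19, and with TMM-type scaling 35 and 4. Without the block, leaving out 1 library gave 0 to 1 rising and 0 to 1 falling in Control, 0 and 0 in Rem2 KO, and 0 to 2 and 0 to 4 for the average. With the block it gave 0 to 5 and 2 to 16 in Control, 0 to 13 and 2 to 17 in Rem2 KO, and 4 to 20 and 7 to 20 for the average; for example 8 rose in Rem2 KO without either Control library, 8 fell there without Control number 2, and for the average 15 fell without Rem2 KO number 2 and 8 without Rem2 KO with KCl number 2. In the 4 genotype and interaction comparisons the alternatives gave 0 members, except that 1, Cox6b2, rose for the averaged genotype effect with the block and without Rem2 KO number 1. With equal FPKM sums the log2 ratio of the summed core subunits between genotypes with KCl was 0.021, and complex II had -0.18 for KCl in Rem2 KO and 0.003 between genotypes with KCl. The fits that leave a group with 1 library assume that it varies like the other groups. The cause of these shifts was not tested.

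With 2 libraries a group and FPKM without counts, the depth behind each value is unknown, and small differences of members are not detectable without the block. The block calls rest on 3 residual degrees of freedom and on pairing libraries by replicate number, for which the data give correlated deviations and the labels give no meaning. Levels of members with near-identical copies are uncertain, because how reads were divided among copies is not given in the sources used here.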
